A study of Mus musculus with 4 samples.

Results

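Sav1 and Mob1b encode proteins that work directly with the kinase MST1, and their RNA was measured in granulocyte-monocyte progenitors with and without that kinase. These bone marrow progenitors are the source of neutrophils and monocytes. The groups were 2 wild-type (WT) and 2 MST1-deficient libraries of poly(A)-selected RNA, each from cells pooled from 10 mice, and no drug was given. Strain, age, sex and the way MST1 was removed are not given in the sources used here. MST1 was taken to be the kinase encoded by Stk4, which the labels do not name. The files used here list transcripts that lie outside the reference annotation, called unannotated transcripts, so each value below covers such transcripts alone. Every listed transcript whose NCBI gene number is that of Sav1 or Mob1b was taken, and each gene had 1, which gives 2 of 8219 transcripts and 2 of 5059 annotated genes. A gene with 1 unannotated transcript was the usual case, with 3341 such genes. Both transcripts were listed in all 4 libraries, as were 4974 of the 8219.

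In the Hippo pathway, MST1 and its relative MST2 phosphorylate LATS and NDR kinases, and LATS in turn keeps the coactivators YAP and TAZ out of the nucleus. SAV1 is the scaffold of this cassette: it carries WW domains and a SARAH domain, by which it pairs with the SARAH domain of the MST kinases and promotes their activity. MOB1A and MOB1B are close relatives that act as adaptors: MST1 phosphorylates them, and in that state they bind and activate LATS and NDR kinases. In leukocytes MST1 is known for roles in adhesion, migration and survival, in part through MOB1 and NDR kinases.

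Because MOB1A and MOB1B are near-identical proteins, their coding sequences were compared first, to see whether reads of Mob1b could be confused with those of Mob1a. The 648 coding bases of both genes (GENCODE M21 transcripts, GRCm38, stop codon left out) aligned without a gap and differed at 132 bases, an identity of 79.6%. The 120 coding bases around the longest identical run, positions 269 to 388 counted from the A of the start codon, are shown with the 17 bases that differ in capitals.
Mob1b: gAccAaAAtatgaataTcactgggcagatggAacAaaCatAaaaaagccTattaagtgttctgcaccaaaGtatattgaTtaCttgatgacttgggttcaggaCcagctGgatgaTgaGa
Mob1a: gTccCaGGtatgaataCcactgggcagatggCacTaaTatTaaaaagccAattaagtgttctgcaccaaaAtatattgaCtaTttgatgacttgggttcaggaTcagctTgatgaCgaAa
The longest run shared by both coding sequences was 20 bases, attaagtgttctgcaccaaa. Of 8918 windows of 50 bases in the longest annotated Mob1b transcript, 0 occurred in a Mob1a transcript and 21 (0.235%) occurred in any other annotated gene. At that read length a read from the annotated Mob1b transcript would nearly always be unique among annotated transcripts; the read length itself is not given in the sources used here.

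Sav1 shares far more of its sequence with a neighbour on the other strand. The gene lies on the minus strand of chromosome 12 (69965012 to 69987002), and Atl1, the gene of a GTPase that shapes the endoplasmic reticulum, runs towards it on the plus strand (69892614 to 69966417). Their exons overlap over 1336 of the 2524 bases of the annotated coding Sav1 transcript (52.9%), among them 205 of its 1158 coding bases. In the same search, 1287 of 2475 windows of 50 bases (52%) also occurred in Atl1 and 0 in any further gene. Whether the counting used strand is not given, so reads from this stretch cannot be told apart between Sav1 and Atl1 if the unannotated Sav1 transcript contains it. The pseudogenes Gm3086 (transcribed), Gm19144 and Gm19221 also overlap the bounds of Sav1 on the other strand. No unannotated transcript of Atl1 or of these 3 was listed in any library. Mob1b lies on the plus strand of chromosome 5 (88720855 to 88764220) and overlaps 1 gene on the other strand, the processed pseudogene Gm15682 inside its bounds, for which no transcript was listed.

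Neither unannotated transcript had the length of an annotated form. The Sav1 transcript, novel_T002026 of gene 64010, was 1869 bases long, while the 3 annotated Sav1 transcripts have 2524 bases (the coding form, 5 exons), 3360 and 1145 bases (both classed as retained introns). It was thus 655 bases shorter than the coding form. The Mob1b transcript, novel_T007392 of gene 68473, was 11707 bases long, 2740 bases longer than the longest of 4 annotated transcripts. Those have 8967 and 2705 bases (coding forms of 6 exons, with 663 and 648 coding bases) and 6258 and 891 bases (retained introns). Only 244 of the 8219 listed transcripts were longer than the Mob1b one, and 6840 were longer than the Sav1 one. The positions of the exons of both unannotated transcripts were not analysed here, so which bases they gain or lack is not known.

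**Figure D1:**
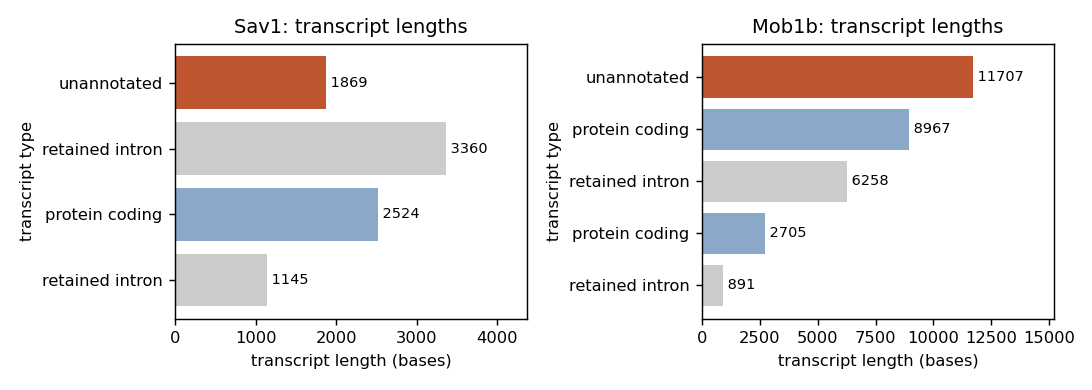
Length in bases (horizontal axis) of the annotated transcripts of Sav1 and Mob1b in GENCODE M21 and of the unannotated transcript listed in the 4 libraries, by transcript type. The Sav1 form (1869 bases) is shorter than the coding transcript of 2524 bases, and the Mob1b form (11707 bases) is longer than every annotated one.

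Sav1, the scaffold, was above 12.4% to 43.6% of the tested transcripts in each library, with the highest share in MST1-deficient replicate 2. Its level in FPKM (the estimated count divided by transcript length and library total) was 1.49 in WT replicate 1 and 0.97 in WT replicate 2. In the MST1-deficient libraries it was 0.96 in replicate 1 and 2.06 in replicate 2. The MST1-deficient libraries held both the lowest and the highest value, so the WT values lay between them and the groups overlapped.

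These levels rested on few reads. The estimated counts of Sav1 were 20.54 and 12.44 in the WT libraries (replicates 1, then 2) and 11.53 and 30.65 in the MST1-deficient ones. Exact 95% Poisson intervals on the rounded counts, which cover counting error alone, ran from 13.0 to 32.1 and from 6.2 to 20.96 in WT. They ran from 6.2 to 20.96 and from 21.06 to 44.0 in the MST1-deficient libraries. The interval of MST1-deficient replicate 2 overlapped that of WT replicate 1. It narrowly missed those of WT replicate 2 and MST1-deficient replicate 1 (21.06 against 20.96), while the other 3 overlapped. These counts were not scaled to library total, and MST1-deficient replicate 2 was the largest library. Its implied total, explained below, was 8518842, against 7406583 in WT replicate 2 and 6913896 in MST1-deficient replicate 1. The gap between unscaled intervals thus does not show a difference in level beyond counting error.

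The mean level of Sav1 was 1.23 ± 0.368 FPKM (SD, n = 2) in WT and 1.51 ± 0.778 in MST1-deficient cells. With edgeR's quasi-likelihood test on the gene sums, that is, the unannotated transcripts of each gene added up, the log2 difference (MST1-deficient minus WT) was 0.47 with an SE of 0.78 and an adjusted p of 0.992. This is a 1.38-fold difference with a 95% interval from 0.332-fold to 5.76-fold, which includes differences of several fold in either direction. Without MST1-deficient replicate 1 the log2 difference was 0.98 (adjusted p = 0.731), and without WT replicate 2 it was 0.23 (adjusted p = 0.999). Leaving out either of the other libraries took Sav1 below the filter, which asked for 2 or more libraries with an FPKM of 1 or above and which it passed through WT replicate 1 and MST1-deficient replicate 2.

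The order of the Sav1 levels followed the order of the library sizes, though the lower levels were nearly equal at 0.97 and 0.96 FPKM. The totals implied by FPKM, count and length were 8518842 in MST1-deficient replicate 2, 7982007 in WT replicate 1, 7406583 in WT replicate 2 and 6913896 in MST1-deficient replicate 1. FPKM is already scaled to these totals, and with 4 libraries the part of library size in the Sav1 values was not tested.

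Mob1b, the adaptor, differed little between any of the libraries. Its level was 3.85 FPKM in WT replicate 1 and 3.38 in WT replicate 2, and 3.56 and 3.37 in the libraries without MST1. WT replicate 1 was the highest, the other 3 libraries lay close together, and the groups overlapped.

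The Mob1b transcript is long, and its counts were much larger than those of Sav1. They were 355.85 and 289.89 in WT, against 285.08 and 332.84 without MST1, with a 95% Poisson interval of 320 to 395 in WT replicate 1 and 253 to 320.1 in MST1-deficient replicate 1. Unlike the FPKM, the unscaled count was higher in MST1-deficient replicate 2 than in WT replicate 2, the former being the larger library.

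The mean level of Mob1b was 3.62 ± 0.332 FPKM (SD, n = 2) in WT and 3.47 ± 0.134 in MST1-deficient cells. The log2 difference of the gene sum was 0.0038 with an SE of 0.23 (edgeR adjusted p = 0.999), a 1.003-fold difference with a 95% interval from 0.661-fold to 1.52-fold. Differences beyond that range lay outside the interval, and smaller ones were not resolved. The sign of so small a difference changed with the scaling: it was negative with the implied library totals or RLE factors in place of TMM, and with limma on log2(FPKM + 0.5) it was negative without and positive with median centring.

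**Figure D2:**
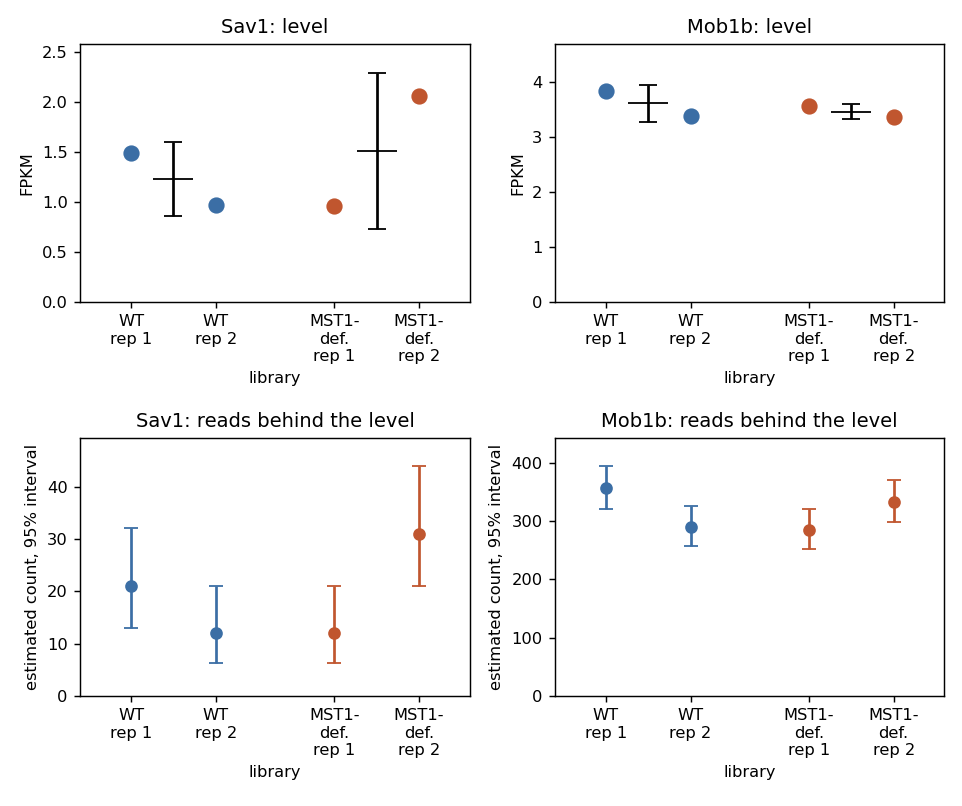
Upper panels: FPKM of the unannotated Sav1 and Mob1b transcripts in each library (points, blue for WT and orange for MST1-deficient), with the group mean and SD in black. Lower panels: rounded estimated counts, not scaled to library total, with exact 95% Poisson intervals. Sav1 runs from 12 to 31 counts and Mob1b from 285 to 356.

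Fitted as single transcripts among 4661 tested, Sav1 had a log2 difference of 0.46 (SE 0.80) and Mob1b one of -0.0020 (SE 0.25), both with an edgeR adjusted p of 0.999. At the level of gene sums edgeR called 0 of 3221 genes (0%), and 182 (5.65%) had an unadjusted p under 0.05, against 0 of the pair, whose unadjusted p-values were 0.576 and 0.987. Among the transcripts the test called 0 of 4661 (0%), and 245 (5.26%) had an unadjusted p under 0.05. Groups without overlap in FPKM were found for 1060 gene sums (32.9%), and Sav1 and Mob1b were not among them. DESeq2 called 46 gene sums (1.43%) and 100 transcripts (2.15%), and limma on log2(FPKM + 0.5) called 5 (0.155%) and 5 (0.107%), none of them Sav1 or Mob1b.

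The spread between the 2 pools of a genotype was larger for Sav1 and smaller for Mob1b than for most genes. On the log2(FPKM + 0.5) scale, the WT replicates differed by 0.44 for Sav1 and by 0.16 for Mob1b, where the median over all gene sums tested was 0.35. The MST1-deficient replicates differed by 0.81 for Sav1 and by 0.069 for Mob1b, where the median was 0.50. Over the 4 libraries the coefficient of variation of FPKM was 38.1% for Sav1 and 6.34% for Mob1b. By mean FPKM 17.5% of the tested transcripts were lower than Sav1 and 57.3% were lower than Mob1b. By mean count, which a long transcript raises, these shares were 8.30% and 86.4%.

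Mob1b was above Sav1 in every library on the FPKM scale, which is per length. The ratio of the Mob1b to the Sav1 level was 2.58 and 3.48 in the WT libraries, against 3.71 and 1.64 in the MST1-deficient ones. The MST1-deficient libraries held both the highest and the lowest ratio.

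**Figure D3:**
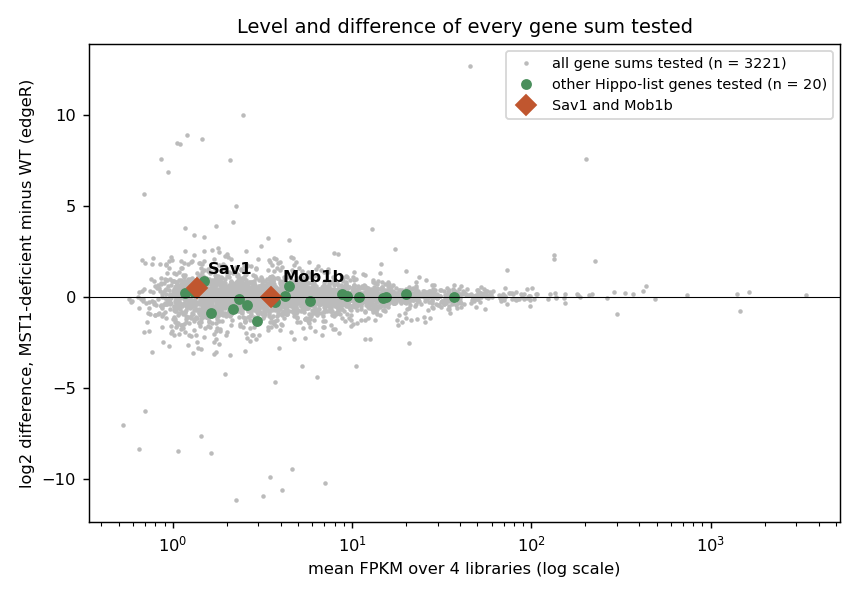
Mean FPKM over the 4 libraries (log axis) against the log2 difference between MST1-deficient and WT libraries (edgeR) for the 3221 gene sums tested, in grey; Sav1 and Mob1b are diamonds and 20 other genes of the Hippo lists are green. Both members lie inside the band of grey points at their level; points beyond a log2 difference of about 5 include genes at 0 in a group, whose fitted value depends on the prior count.

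The genes whose levels followed each member most closely were sought among 3220 other gene sums. Closeness was the distance between centred log2(FPKM + 0.5) profiles over the 4 libraries. The Sav1 profile itself rested on 11.53 to 30.65 counts per library. Being chosen as the nearest, the genes named lie far below the median distance by selection. For Sav1 they were Btbd10 (distance 0.11), Klhl18, an adaptor of a cullin ubiquitin ligase (0.12), and Sik2, a salt-inducible kinase (0.12), where the median distance was 1.06. Sik2 had 3.91 and 2.97 FPKM in WT and 3.10 and 5.26 in MST1-deficient libraries. It too was highest in MST1-deficient replicate 2, which follows from its choice by likeness to Sav1. For Mob1b they were Ttc37, a subunit of the SKI complex of RNA decay (0.043), Ube2d3, a ubiquitin-conjugating enzyme (0.048), and Carns1, a carnosine synthase (0.053), where the median was 0.67. Ube2d3 had 22.79 and 19.79 FPKM in WT and 21.70 and 19.95 in MST1-deficient libraries. The distance between Sav1 and Mob1b was 0.69.

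The kinase itself could not be checked in these lists. Of 8 core genes of the cassette, unannotated transcripts were listed for Sav1, Mob1b and Lats2. Stk4, Stk3 (which encodes MST2), Mob1a, Lats1 and Nf2 had none, so a level of these genes was not measured here and the labels alone define the groups. Lats2, a kinase that MOB1 activates, was listed at 0.03 FPKM in WT replicate 1 and at 0 elsewhere, below the filter.

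Of the other MOB proteins and the NDR kinases, 3 of 7 genes were listed and 2 were tested, with 0 called in either direction by edgeR. Stk38, which encodes the NDR kinase NDR1, a binding partner of MOB1, had 0.95 and 1.13 FPKM in WT and 2.56 and 0.68 in MST1-deficient libraries, summed over 4 transcripts. As with Sav1, the MST1-deficient libraries held the highest and the lowest value, but here replicate 1 was the high one. Mob3c, a more distant MOB gene, had 3.16 and 1.75 FPKM in WT and 3.41 and 1.09 in MST1-deficient libraries. Mob4, the MOB subunit of the STRIPAK phosphatase complex, was below the filter with 0.12 to 1.5 FPKM.

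Upstream of the cassette, 12 of 25 genes were listed, 8 were tested and edgeR called 0 higher and 0 lower. The median log2 difference of the 8 was -0.16, beside 0.013 over all genes tested. Rassf2, which encodes a SARAH-domain protein that binds MST kinases, had 20.91 and 17.68 FPKM in WT and 23.58 and 17.35 in MST1-deficient libraries. Taok2, a kinase of the family that can phosphorylate MST kinases, had 15.94 and 15.27 against 16.53 and 13.83 FPKM. Map4k4, a kinase that acts on LATS in parallel to MST, had 11.17 and 10.82 against 15.89 and 5.74 FPKM, so its MST1-deficient values lay on both sides of the WT ones.

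Among the restraining factors of the STRIPAK complex and the LIM proteins, 4 of 14 genes were listed and 1 was tested. That gene, Slmap, whose protein links STRIPAK to MST kinases, had 1.67 and 0.80 FPKM in WT and 1.72 and 1.09 in MST1-deficient libraries. Of the effectors and their regulators, 5 of 19 were listed and 3 tested, with 0 called. Vgll4, which competes with YAP for TEAD, had 16.09 and 14.96 against 15.67 and 12.72 FPKM. Fbxw11, a substrate receptor of the ubiquitin ligase that degrades YAP, had 6.47 and 6.12 against 7.34 and 3.43. The DNA-binding partner Tead2 had 1.52 and 0.70 against 1.46 and 1.01. The groups overlapped for each of these 4 genes. Neither Yap1 nor Wwtr1, which encodes TAZ, was listed.

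Of 8 genes widely used as YAP and TEAD targets only Myc was listed, with 4.40 and 2.85 FPKM in WT and 7.10 and 3.54 in MST1-deficient libraries (log2 difference 0.57, SE 0.41, edgeR adjusted p = 0.992). Of 11 genes tied to MST1 in leukocytes 7 were listed and 5 tested, again with 0 called. Rap1b, a GTPase that activates integrins, had 43.65 and 32.49 against 33.20 and 38.08 FPKM. Foxo3, a transcription factor that MST1 phosphorylates, had 10.28 and 8.37 against 11.77 and 6.95, and Sipa1, which inactivates RAP1, had 9.82 and 7.28 against 6.99 and 10.90. In all 3 the groups overlapped.

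Over all lists, 35 of 90 genes were listed and 22 tested, Sav1 and Mob1b included. Of the 22, 12 had a positive and 10 a negative log2 difference, with a median of 0.0079 beside 0.013 over all genes tested, and edgeR called 0, with 0 at an unadjusted p under 0.05 and a lowest adjusted p of 0.943. DESeq2 and limma called 0 of the 22 as well. No overlap between the groups was seen for 3 of the 22, beside 32.9% of all gene sums. These 3 are named because of these values. Frmd6, a FERM-domain protein of the upstream branch, had 0.91 and 1.21 FPKM in WT and 2.05 and 1.78 in MST1-deficient libraries. Map4k3 had 2.63 and 1.73 against 1.05 and 1.15. Coro1a, an actin regulator of leukocytes, had 5.63 and 3.25 against 0 and 2.95. None of these 3 passed, with adjusted p between 0.943 and 0.992.

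**Figure D4:**
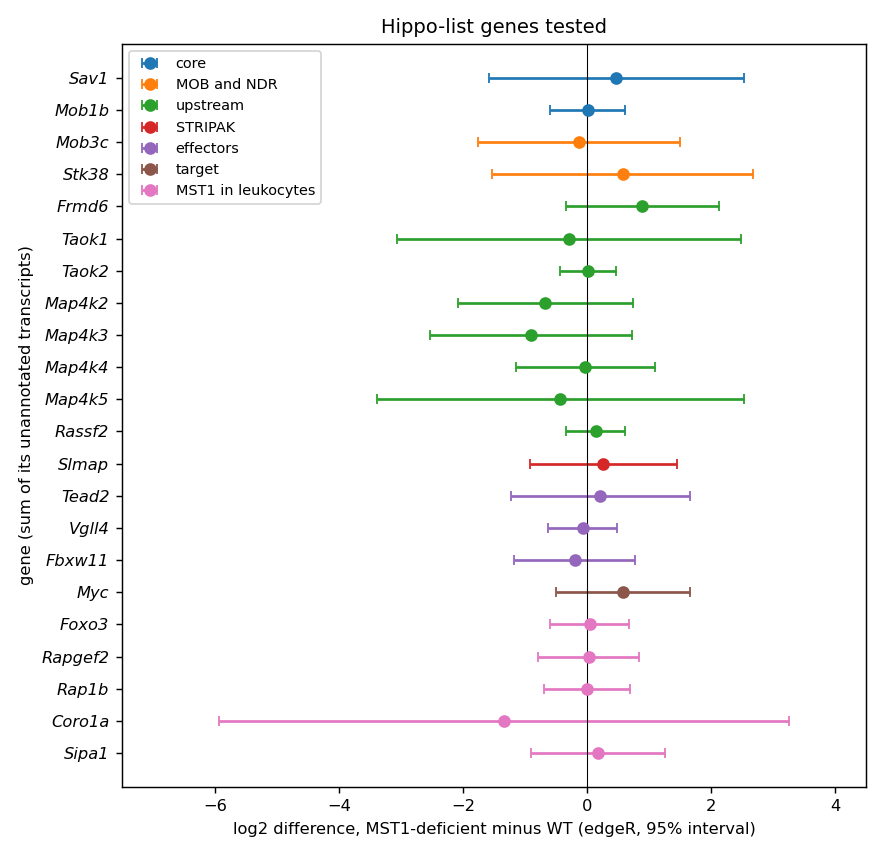
Log2 difference (MST1-deficient minus WT) with its 95% interval from edgeR for the 22 Hippo-list genes tested, coloured by list. Every interval contains 0; that of Mob1b (-0.60 to 0.60) is among the narrow ones and that of Sav1 (-1.59 to 2.53) among the wide ones.

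The libraries also differed in other ways. Estimated counts of the listed transcripts summed to between 928977 and 1079382 per library. Of 16 markers of granulocyte-monocyte progenitors, Gfi1, Kit and Runx1 had unannotated transcripts and 13, among them Mpo and Elane, had none, so the labelled cell type could not be checked well. Listed markers of eosinophils, basophils and mast cells (4 of 9) summed to 151 to 190.4 FPKM in WT and 113 to 126 in MST1-deficient libraries. Listed erythroid markers (4 of 9) summed to 23.6 to 30.7 and 7.84 to 18.5 FPKM, and those of mature neutrophils and monocytes (3 of 10) to 56.7 to 96.8 and 54.6 to 87.3. B lineage markers (3 of 6) summed to 1.72 to 22.3 and 8.42 to 9.46, and T and NK markers (3 of 7) to 5.71 to 16.9 and 7.63 to 13.7. The Y-linked gene Ddx3y had 1.91 and 0 FPKM in WT and 10.2 and 5.60 in MST1-deficient libraries. Eif2s3y, also Y-linked, had 1.35 and 0 against 7.57 and 4.64. Kdm5d had 0.02 and 0 against 2.59 and 3.19, and Uty 0.32 and 0 against 3.01 and 1.38. All 4 were at 0 in WT replicate 2 and higher in both MST1-deficient libraries than in either WT library. RNA of these Y-linked genes thus differed with genotype. The male share of each pool is not given, and its part in the comparison of the groups was not tested. The part of these differences in the values of Sav1 and Mob1b was not tested, and in RNA from pooled cells a smaller share of expressing cells and less RNA per cell cannot be told apart.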

How the data were processed

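Poly(A) RNA from 4 libraries was sequenced, per the labels' protocols. The authors deposited, per transcript, estimated counts (expected counts, not normalised, mostly not whole) and FPKM, per the file headers. Reads were placed on mm10, according to the submitters' processing notes. The aligner, assembler, estimator and annotation used are not given in the sources used here. A transcript missing from a library was set to 0. Counts over FPKM rose linearly with length less an offset of 125 to 138.7 bases (transcripts with at least 200 counts), and the slope gave the implied library totals of 6913896 to 8518842.

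Gene numbers were matched to symbols through a RefSeq table of GRCm38.p6 (5051 of 5059). Annotated transcripts came from GENCODE M21 on the same build. Transcripts and gene sums that reached an FPKM of 1 in 2 or more libraries were tested 2-sided with the quasi-likelihood F-test of edgeR 4.0.16, TMM factors and rounded counts under R 4.3.3, with Benjamini-Hochberg adjustment over all features and a threshold of 0.05. Intervals of log2 differences used the SE and degrees of freedom of that test. It was tested on simulated data. An exact permutation test of 2 against 2 cannot go below 0.33 and was not used. Separate preparation of the pools of a group is not stated, so p-values measure the spread between these libraries.

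Alternatives were limma 3.58.1 on log2(FPKM + 0.5), pseudocounts of 0.1 and 1, median centring, DESeq2 1.42.0, RLE factors, implied totals, no filter and a stricter one, a block by replicate number, and leaving out each library. Named genes were all tested core, MOB and NDR genes, the 3 most abundant tested genes of each other list, and the 3 genes nearest to each member in pattern. Lats2 and Mob4, below the filter, were named as well. Frmd6, Map4k3 and Coro1a were named after the fact, because their groups did not overlap. The members and lists were chosen with earlier results of these data known.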

Additional observations from a re-analysis of the deposited data

How the results depend on the processing

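Sav1 kept a positive log2 difference in all 11 alternatives that gave a value (0.15 to 0.98 for the gene sum). In fits of all 4 libraries it did not pass the threshold. For the gene sum, adjusted p ran from 0.961 (edgeR, replicate block) to 0.9998 (edgeR, implied totals). An FPKM of at least 1 in all 4 libraries gave no value. Leaving out WT replicate 1 or MST1-deficient replicate 2 gave none either, since Sav1 then fell below the filter. The sign without MST1-deficient replicate 2 was thus not fitted. The MST1-deficient level that remains, 0.96 FPKM, was below both WT levels (1.49 and 0.97). The fitted Sav1 differences without 1 library were 0.23 and 0.98 as a gene sum and 0.22 and 0.98 as a transcript. The Mob1b difference stayed below the threshold throughout (adjusted p 0.947 to 1 for the gene sum), but its sign turned in 11 of 14 alternatives, all within 0.12 of 0. It was -0.052, -0.057 and -0.046 with limma at pseudocounts of 0.5, 0.1 and 1, -0.0037 with DESeq2, -0.0036 with RLE factors, -0.061 with implied totals, -0.016 without a filter and -0.023 with the filter in all 4 libraries. Leaving out 1 library gave -0.12 to 0.11. As a transcript, Mob1b turned to 0.026 with median centring, 0.010 with DESeq2 and 0.011 with RLE factors, and ranged from -0.095 to 0.10 with 1 library left out. The cause of these turns was not tested.

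With a replicate block, the log2 difference was 0.34 for Sav1 and -0.00075 for Mob1b, and edgeR called 0 gene sums and 0 transcripts. Replicate differences of both genotypes correlated weakly across genes (r = 0.127, genes not being independent), and the numbers are not known to pair the pools.

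The count of called gene sums, 0 in the main test, was 5 with limma at a pseudocount of 0.5 or 1 and with median centring, 9 at 0.1, 46 with DESeq2 and 2 with the filter in all 4 libraries. For transcripts these counts were 5 and 6 with limma at 0.5 and 1, 6 with median centring, 100 with DESeq2 and 2 with that filter. It was 0 in each left-out-library fit. Of the Hippo-list genes 0 were called under every alternative. Sav1 rested on 11.53 to 30.65 counts per library and Mob1b on 285.08 to 355.85, and both on 2 pools per group.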
